A study of Mus musculus with 4 samples.

Results

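The 38 genes described here encode proteins that copy DNA or divide the cell, and they were chosen by name as known cell cycle genes. All 38 were listed in each of 4 single-cell libraries, among 30408 gene names in all. In this set, 15 genes act mainly up to and in S phase and are called S genes, 21 act from G2 through mitosis and are called mitotic genes, and Hmgb2 and Stmn1, which accompany proliferation, belong to neither set.

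Before it copies its genome, a cell loads the MCM helicase on its DNA with the help of Cdc6. In S phase the sliding clamp Pcna holds the polymerase on the template, while ribonucleotide reductase (Rrm1, Rrm2) and thymidylate synthase (Tyms) make the nucleotides. Cyclins A and B with Cdk1 then drive the cell into mitosis, Aurora and Polo kinases build the spindle, Cdc20 and Ube2c work with the anaphase-promoting complex to end it, and Anln organises the ring that cleaves the cell. S genes are classically driven by E2F factors, and mitotic genes by complexes that bind CHR elements and CCAAT boxes, so the transcripts of these sets peak at different times. In a tumour, carcinoma cells, activated lymphocytes and resident macrophages can all divide, whereas mature neutrophils have left the cycle.

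The study set tumours of male mice beside tumours of female mice. All tumours came from MB49, a mouse bladder carcinoma line that was derived from a male animal. Tumours were dissociated with enzymes, live cells were sorted as CD45+ (leukocytes) or CD45- (all others), and single cells were profiled with BD Rhapsody, a microwell system in which every transcript carries a unique molecular identifier (UMI). There was 1 library for each of the 4 groups: male CD45+, female CD45+, male CD45- and female CD45-. The labels used here do not give the strain or age of the mice, or how many tumours went into a library. No difference between male and female libraries therefore has a replicate check, and no test over samples was possible. The host's sex, the library and the animals behind it cannot be told apart. Carcinoma cells and leukocytes also come from different sort gates, and so from different libraries. Every interval below is a 95% interval for counting error alone. It treats UMIs as independent, although UMIs of a cycling cell come together.

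The CD45+ libraries held 5771 (male) and 5169 (female) cell barcodes with 40644787 and 37705608 UMIs, and the CD45- libraries held 6023 and 5152 barcodes with 62273035 and 44601391 UMIs. Of 22115 barcodes, 19375 were kept, those with 500 UMIs or more, 250 genes or more and no more than 25% of UMIs from mitochondrial genes. The 38 genes took up 0.295% and 0.163% of the kept UMIs in the male and female CD45+ libraries, and 0.744% and 0.607% in the CD45- libraries. Cells were placed in types by marker genes, none of which is a cell cycle gene. Cells with markers of 2 lineages, 474, 415, 13 and 10 in the order above, were left out, no doublet caller was run, and doublets within a type were not removed. Such a type is a range of marker score, not a natural class: 160 male and 436 female macrophages, of 2165 and 2772, lay near the score that bounded the type. T cell, NK cell and keratin markers had a median of 0 in macrophages. Macrophage markers, in UMIs per 10000, had a median of 6.97 in male and 19.4 in female CD8 T cells, against 199 and 151 in macrophages. Below, a pair of values is given in the order male, female unless stated. Levels are counts per 1000000 UMIs (CPM) of the cells of 1 type in 1 library summed, and they are compared along a gene, never between genes.

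The windows around the start sites of the genes were searched for words that resemble these elements. RefSeq windows on GRCm38.p6, from 250 bases before to 50 bases after the start, could be matched to 30 of the 38 genes. An E2F-like word (TTTCGCGC or TTTGGCGC, either strand) stood in the windows of 4 of 12 S genes, Mcm3, Mcm5, Mcm6 and Mcm7, and of 1 of 17 mitotic genes, Cdk1, against 0.833% of 27025 windows of all genes. A CHR-like word (TTTGAA or TTCGAA) stood in 13 of 17 mitotic and 2 of 12 S windows, against 19.4% of all. CCAAT stood in 14 of 17 mitotic and 9 of 12 S windows, against 37.9% of all. The other 8 S windows held no E2F-like word, and the mitotic windows of Ccnb1, Birc5, Nusap1 and Cenpe no CHR-like word. E2F-like words can overlap each other on opposite strands, as in Mcm6 and Mcm5 here, and then form 1 run of capitals. A match is a description of letters and not a binding site. Shown are the stretches from 170 to 31 bases before the start for the 2 genes by which cycling cells are counted below (Mki67, Top2a), the mitotic gene with an E2F-like word (Cdk1) and a pair of helicase genes (Mcm6, Mcm5). They are written 5′ to 3′ on the strand of the gene, with these words in capitals on either strand. The stretches lie at chr7:135716410-135716549 (minus strand), chr11:99024220-99024359 (minus), chr10:69352943-69353082 (minus), chr1:128359736-128359875 (minus) and chr8:75109339-75109478 (plus), in the order printed, all of them before the RefSeq start.
Mki67: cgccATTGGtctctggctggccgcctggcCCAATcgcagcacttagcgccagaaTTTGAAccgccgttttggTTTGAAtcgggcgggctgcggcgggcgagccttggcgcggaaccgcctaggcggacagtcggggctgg
Top2a: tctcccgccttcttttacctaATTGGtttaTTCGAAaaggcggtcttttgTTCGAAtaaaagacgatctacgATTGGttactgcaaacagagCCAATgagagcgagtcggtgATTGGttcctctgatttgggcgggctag
Cdk1: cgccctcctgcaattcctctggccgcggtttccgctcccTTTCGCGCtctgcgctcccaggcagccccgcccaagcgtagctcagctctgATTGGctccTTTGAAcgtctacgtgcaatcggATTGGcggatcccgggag
Mcm6: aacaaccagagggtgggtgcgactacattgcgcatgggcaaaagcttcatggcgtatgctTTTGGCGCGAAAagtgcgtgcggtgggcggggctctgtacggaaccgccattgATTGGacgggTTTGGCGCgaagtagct
Mcm5: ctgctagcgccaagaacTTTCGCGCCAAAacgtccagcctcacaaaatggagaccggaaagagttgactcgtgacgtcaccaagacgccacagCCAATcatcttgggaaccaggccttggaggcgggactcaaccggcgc
In these stretches Mki67 and Top2a each hold CHR-like words and CCAAT boxes and no E2F-like word, Mcm6 and Mcm5 hold E2F-like words and no CHR-like word, and Cdk1 holds all 3 kinds.

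Carcinoma cells and lymphocytes, NK cells included, carried the most cell cycle transcripts. Summed over the 38 genes, carcinoma cells reached 7467 and 6159 CPM and CD8 T cells 5736 and 6274 CPM. Regulatory T cells, measured in the male library alone, reached 6091 CPM, and CD4 T cells without Foxp3 reached 4503 and 3809 CPM. T cells with no or conflicting Cd4, Cd8 and Foxp3 UMIs, called other T cells here, were at 5846 and 2560 CPM. NK cells were at 5129 and 2238 CPM. The male lymphocyte types thus lay between 4503 and 6091 CPM, while in the female library CD8 T cells lay above all other lymphocytes. Among myeloid cells, type 1 dendritic cells (male library alone) were at 4158 CPM, type 2 dendritic cells at 3429 and 1008 CPM, and macrophages at 2368 and 1333 CPM. These myeloid types were below CD8 T cells of the same library in every case.

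Monocytes were at 1404 and 903 CPM, mature dendritic cells at 1218 and 890 CPM, fibroblasts (female library alone) at 921 CPM and neutrophils at 904 and 943 CPM. Barcodes under 500 UMIs, which can hold free RNA or broken cells, give a level to set beside these sums. In the male and female CD45+ libraries they held the 38 genes at 1499 and 1386 CPM, on 88 and 246 UMIs. Monocytes, mature dendritic cells and neutrophils lay below that level in their own library, and so did female macrophages and female type 2 dendritic cells. Male monocytes and female macrophages were close to it, and no counting interval was set on that level, so they are not told apart from it. How much of these sums came from free RNA was not tested.

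**Figure D1:**
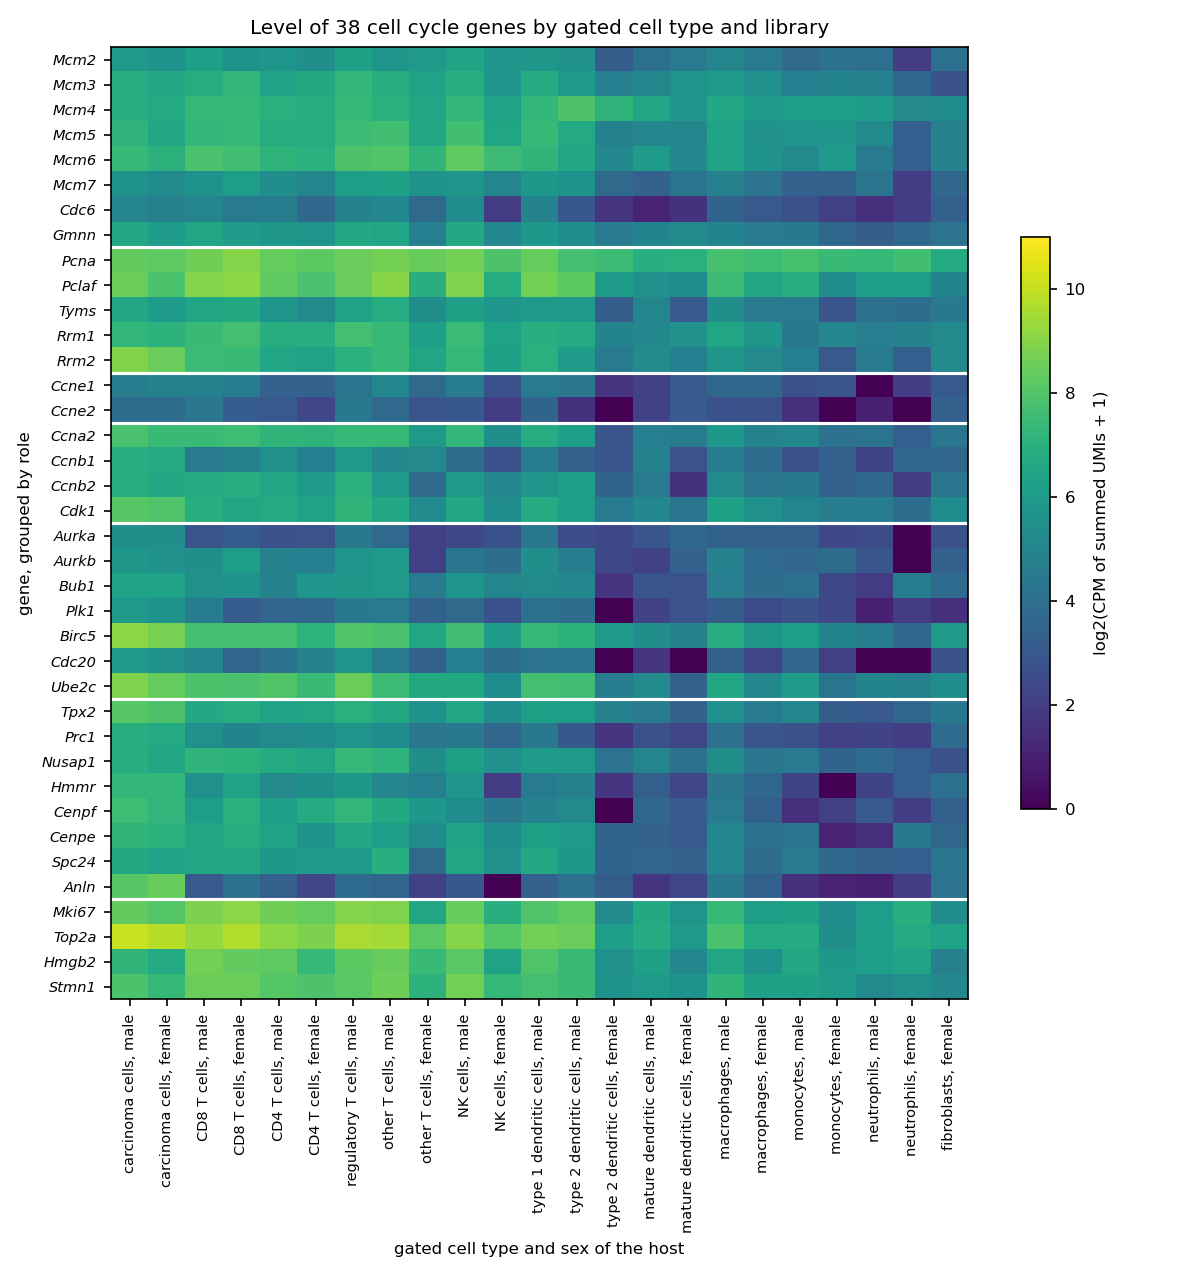
Level of each of the 38 genes (rows, grouped by role) in each cell type and host sex (columns), coloured by log2(CPM + 1). Read along a row, carcinoma and T cells are the bright columns: Top2a was at 1065 and 904 CPM in carcinoma cells and at 67.8 and 104 CPM in neutrophils.

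Among the 8 genes of the helicase, of origin licensing and of its control, Mcm6, a subunit of the MCM ring, was highest in male NK cells and in female CD8 T cells. It was at 229 and 198 CPM in CD8 T cells, 141 and 127 CPM in CD4 T cells, 259 and 148 CPM in other T cells, 313 and 187 CPM in NK cells, and 244 CPM in male regulatory T cells. Carcinoma cells, at 166 and 135 CPM, lay below CD8 T cells in both sexes, and macrophages were at 79.5 and 47.8 CPM. Mcm6 was at 145 CPM in male type 1 dendritic cells, at 92.4 and 34.3 CPM in type 2, at 64.7 and 34.2 CPM in mature dendritic cells, at 37.4 and 59.0 CPM in monocytes and at 22.6 and 8.90 CPM in neutrophils. Mcm4, another subunit of the ring, did not follow that order. Its highest value was in male type 2 dendritic cells, at 243 CPM, with 139 CPM in the female ones, against 160 and 160 CPM in CD8 T cells, 114 and 105 CPM in carcinoma cells and 99.5 and 65.8 CPM in macrophages. In neutrophils Mcm4 was at 62.2 and 35.6 CPM.

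Of the 5 DNA synthesis genes, Pcna was present in every type. The clamp's transcript was at 396 and 513 CPM in CD8 T cells, 337 and 301 CPM in CD4 T cells, 327 and 312 CPM in carcinoma cells, 219 and 190 CPM in macrophages, and 159 and 202 CPM in neutrophils. Pcna also serves DNA repair, and its level in female neutrophils was not below that in female macrophages. Rrm2, the small subunit of ribonucleotide reductase, set carcinoma cells apart instead. It reached 477 and 359 CPM there, against 178 and 171 CPM in CD8 T cells, 131 CPM in male regulatory T cells, 87.1 and 80.4 CPM in CD4 T cells, 53.6 and 35.4 CPM in macrophages, and 22.6 and 8.90 CPM in neutrophils. Across all immune types the highest Rrm2 level was that of male CD8 T cells, so carcinoma and immune cells did not overlap. Pclaf, a partner of the clamp, went the other way: 367 and 233 CPM in carcinoma cells against 506 and 562 CPM in CD8 T cells.

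The G1/S cyclins were scarce in all types. Ccne1, the E-type cyclin that starts S phase with Cdk2, was at 24.1 and 27.5 CPM in carcinoma cells, 27.8 and 24.4 CPM in CD8 T cells, 34.4 and 12.8 CPM in other T cells and 12.3 and 12.0 CPM in macrophages. Ccne2, its homologue, ranged from 0 CPM in female neutrophils, monocytes and type 2 dendritic cells to 20.6 CPM in male regulatory T cells, with 14.1 and 13.7 CPM in carcinoma cells. At these levels the order of the small types is set by a handful of UMIs.

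Of the mitotic cyclins and their kinase, Cdk1 and Ccnb1 separated carcinoma cells from all immune types. Cdk1, the kinase that triggers mitosis, was at 282 and 250 CPM in carcinoma cells, 118 and 86.9 CPM in CD8 T cells, 106 and 82.4 CPM in CD4 T cells, 146 CPM in male regulatory T cells, 77.6 and 45.3 CPM in macrophages and 24.5 and 14.8 CPM in neutrophils. Ccnb1, the cyclin B partner of Cdk1, was at 121 and 106 CPM in carcinoma cells and at most at 63.2 CPM, in male regulatory T cells, in any immune type. Cyclin A did not separate them: Ccna2 was at 229 and 177 CPM in carcinoma cells and at 173 and 190 CPM in CD8 T cells, against 56.7 and 29.5 CPM in macrophages.

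Of the 7 genes of the mitotic kinases, the passenger complex and the ubiquitin ligase, 6, all but Aurkb, were highest in carcinoma cells in both sexes. The ranking is among the types measured in both sexes, and 21.9% of all genes were highest in carcinoma cells by it. Birc5, the survivin subunit of the passenger complex, was at 563 and 426 CPM there, at 214 and 206 CPM in CD8 T cells, 207 and 139 CPM in CD4 T cells, 256 CPM in male regulatory T cells, 116 and 54.9 CPM in macrophages and 24.5 and 11.9 CPM in neutrophils. Ube2c, which works with the anaphase-promoting complex, was at 466 and 340 CPM in carcinoma cells, 232 and 231 CPM in CD8 T cells, 365 CPM in male regulatory T cells, 92.9 and 34.3 CPM in macrophages and 30.1 and 26.7 CPM in neutrophils. Male regulatory T cells thus exceeded the female carcinoma cells in Ube2c. Aurka, the kinase of the spindle poles, was at 42.6 and 42.1 CPM in carcinoma cells and between 0 and 20.6 CPM in the immune types.

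Anln separated carcinoma cells from every immune type by the widest margin shown here. This scaffold of the cleavage furrow was at 281 and 344 CPM in carcinoma cells and between 0 CPM (female NK cells) and 20.4 CPM (male macrophages) in the immune types, with 17.0 CPM in female fibroblasts. In CD8 T cells, which resembled carcinoma cells in their summed cell cycle transcripts, Anln was at 7.49 and 16.3 CPM. Other genes of the spindle and kinetochore differed less: Tpx2, which carries Aurora A to the spindle, was at 282 and 240 CPM in carcinoma cells, 97.4 and 114 CPM in CD8 T cells, 126 CPM in male regulatory T cells, 44.4 and 22.1 CPM in macrophages and 7.53 and 11.9 CPM in neutrophils.

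The classic proliferation markers ranked the types differently from each other. Top2a, the topoisomerase that untangles replicated chromosomes, was at 1065 and 904 CPM in carcinoma cells, 626 and 858 CPM in CD8 T cells, 558 and 454 CPM in CD4 T cells, 777 CPM in male regulatory T cells and 703 and 286 CPM in other T cells. It was at 507 and 264 CPM in NK cells, 402 CPM in male type 1 and 355 and 70.8 CPM in type 2 dendritic cells, 226 and 108 CPM in macrophages, 109 and 42.9 CPM in monocytes and 107 and 58.4 CPM in mature dendritic cells. Mki67, which coats mitotic chromosomes, was instead highest in T cells: 459 and 549 CPM in CD8 T cells, 395 and 336 CPM in CD4 T cells, 515 CPM in male regulatory T cells and 469 and 86.7 CPM in other T cells. Carcinoma cells held Mki67 at 330 and 266 CPM, below CD8 T cells in both sexes. Among the rest, Mki67 was at 343 and 121 CPM in NK cells, 249 CPM in male type 1 and 310 and 38.6 CPM in type 2 dendritic cells, 164 and 68.7 CPM in macrophages, 100.4 and 50.4 CPM in mature dendritic cells and 76.8 and 39.7 CPM in monocytes.

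Neutrophils, the type taken as one that should lack Mki67 and Top2a, held them at 70.6 and 122 CPM for Mki67 and 67.8 and 104 CPM for Top2a. Female macrophages, at 68.7 CPM of Mki67 and 108 CPM of Top2a, were thus not above female neutrophils in Mki67 and differed from them by less than the counting error in Top2a. The neutrophil values rested on few cells. Of the 41 Mki67 UMIs of female neutrophils, 43.9% came from 1 cell, and so did 82.9% of their 35 Top2a UMIs. The 56 male neutrophils with a Mki67 or Top2a UMI held the other 36 genes at 2500.5 CPM and the 586 without at 379 CPM. S genes were 6.78 and mitotic genes 7.17 times as high, and 13 of 13 genes with enough UMIs were higher, where 23.3% of all genes were, at median depths of 1475 and 1243 UMIs. The neutrophil level is thus a value to compare with, and was not shown to be free RNA alone.

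Of the 38 genes, 16 were highest in carcinoma cells in both sexes among the 10 types measured in both, whereas 21.9% of all genes were. They were 15 of the 21 mitotic genes (Ccnb1, Cdk1, Aurka, Bub1, Plk1, Birc5, Cdc20, Ube2c, Tpx2, Prc1, Hmmr, Cenpf, Cenpe, Anln and Top2a) and 1 of the 15 S genes (Rrm2). Nusap1 and Hmgb2 were highest in CD8 T cells in both sexes, where 3.47% of all genes were. Hmgb2, a chromatin protein that bends DNA, was at 401 and 326 CPM in CD8 T cells and 145 and 105 CPM in carcinoma cells.

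Set against macrophages of the same sex, carcinoma cells held 36 of 38 genes at a higher level in the male libraries, where 42.8% of all genes were called so, and 38 of 38 in the female libraries, where 40.9% were. A gene is called here when its CPM ratio is at least 1.5 in 1 direction and the counting interval lies on that side of 1, with at least 20 UMIs in both together. CD8 T cells were higher than macrophages for 35 and 31 genes (28.5% and 20.9% of all genes) and CD4 T cells for 23 and 31 (22.6% and 19.5%). Male regulatory T cells were higher for 36 (25% of all genes), other T cells for 31 and 20 (24.8% and 19.3%), and male type 1 dendritic cells for 27 (16.7%). NK cells were higher for 29 and 15 genes (23.3% and 17.2%). In the other direction the exception was Anln, lower than in macrophages in male CD8 T cells (17% of all genes), NK cells (15.8%) and type 1 dendritic cells (18.9%). In carcinoma cells and in all other lymphocyte types, 0 of the genes were lower.

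Type 2 dendritic cells changed places with macrophages between the libraries. In the male library 13 of the genes were higher in them (11.4% of all genes) and 2 lower (15.8%), in the female library 1 was higher (8.93%) and 10 lower (10.5%). Their neutrophil markers had medians of 26.2 and 12.9 UMIs per 10000, and their part in this was not tested. Only 29 and 21 of the 130 and 70 type 2 dendritic cells passed a stricter gate. Neutrophils, mature dendritic cells and monocytes were below macrophages. In neutrophils 34 of the genes were lower in the male library (36.1% of all genes) and 13 in the female library (15.5%), where Mki67 and Hmgb2 were higher in neutrophils (9.62%). Elsewhere 0 genes were higher in these 3 types, whereas of all genes 12.3% were in male neutrophils, 15.6% and 12.7% in mature dendritic cells and 9.77% and 10% in monocytes. In mature dendritic cells 27 and 8 were lower (21.8% and 16%), and in monocytes 21 and 19 (9.86% and 9.17%). In female fibroblasts 10 genes were lower than in macrophages (20.6%).

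The carcinoma cells and the CD8 T cells, which had the highest sums in the female libraries and were both high in the male ones, differed in which genes made up the sum. This comparison was added after the levels had been seen. The S genes together were at 2218 CPM in male carcinoma cells and 2281 CPM in male CD8 T cells, a ratio of 0.972 (0.932 to 1.02). The mitotic genes together were at 4868 and 2690 CPM, a ratio of 1.81 (1.74 to 1.88). In the female libraries the S genes were at 1757 CPM in carcinoma and 2472 CPM in CD8 T cells, a ratio of 0.711 (0.666 to 0.760), and the mitotic genes at 4134 and 3113 CPM, a ratio of 1.33 (1.25 to 1.41). In both sexes the ratio of carcinoma to CD8 T cells was thus greater for mitotic than for S genes.

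In the male libraries 16 of 38 genes were called higher in carcinoma cells, where 22.9% of all genes were, and 2 lower (19.5%). Of these, 15 higher were mitotic and 1 was an S gene. In the female libraries 12 were higher (17.5% of all genes) and 11 lower (16.4%). There 11 of the higher and 1 of the lower genes were mitotic, and 1 of the higher and 8 of the lower were S genes. The 8 lower S genes became 1 when cells were thinned to 1000 UMIs, when the 5% of cells with most UMIs were left out, or when the libraries were scaled by the median ratio of all genes. The median of all genes lay at -0.20 (male) and -0.36 (female) on the log2 scale. The Anln ratio of carcinoma to CD8 T cells was 37.5 (18.2 to 93.2) and 21.1 (9.70 to 57.6), on 7 and 6 UMIs in the CD8 T cells. For the spindle kinase Aurka the ratio was 6.63 and 5.17, for Ccnb1 5.38 and 3.90, for the Polo kinase Plk1 2.51 and 6.10, and for Rrm2 2.69 and 2.10. Hmgb2 (0.36 and 0.32), the tubulin regulator Stmn1 (0.65 and 0.45) and Mki67 (0.72 and 0.48) had ratios below 1.

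**Figure D2:**
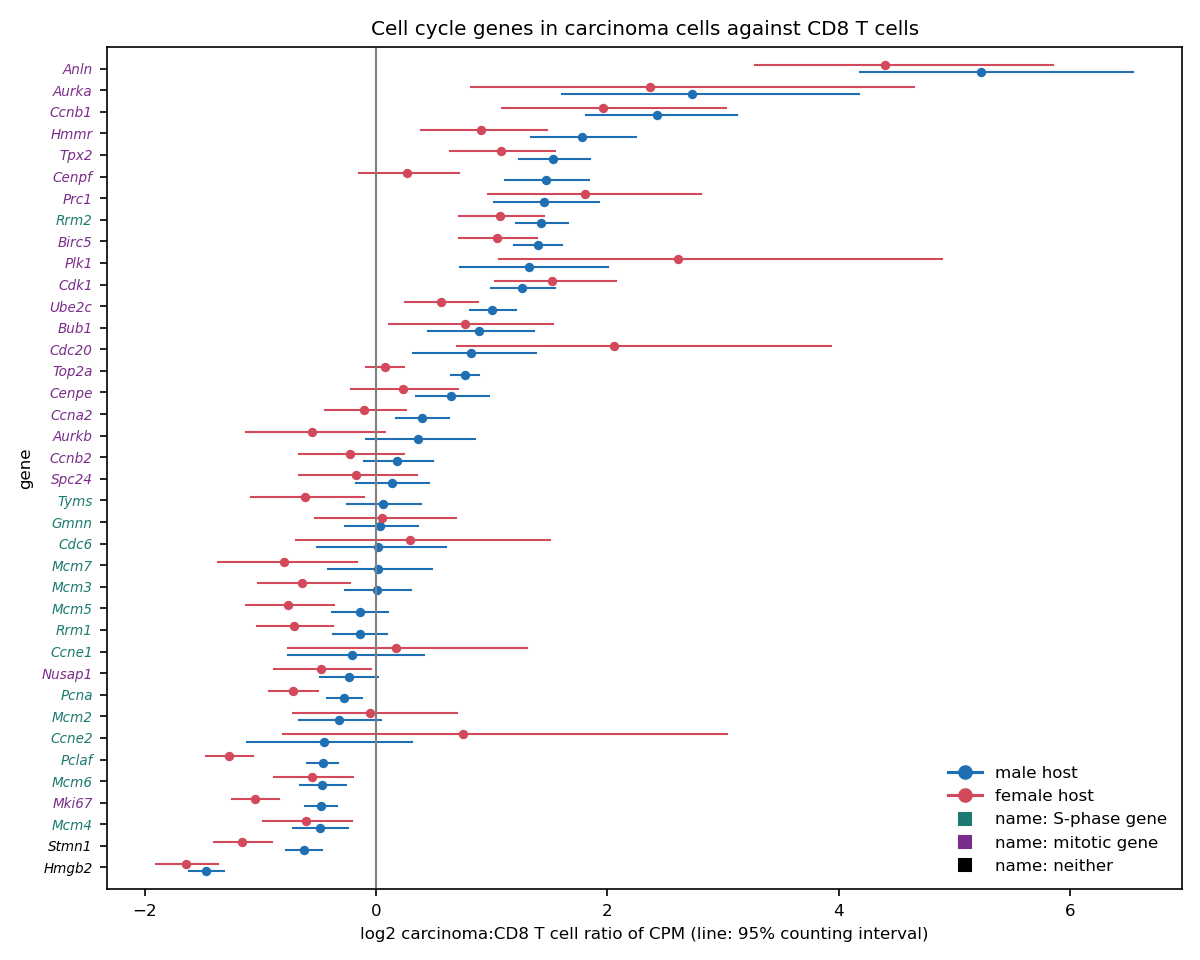
Ratio of CPM in carcinoma cells to that in CD8 T cells for each gene (log2 axis), in tumours of male and of female hosts, with lines for the 95% counting intervals and names coloured by gene set. Most mitotic genes lie to the right of 0 and Anln is farthest, at ratios of 37.5 and 21.1, while most S genes lie near or to the left of 0 and Rrm2 (2.69 and 2.10) to the right.

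The balance of S to mitotic UMIs within a type does not depend on the library total. Carcinoma cells had the lowest ratio of all types, 0.456 (0.453 to 0.459) for male and 0.425 (0.421 to 0.429) for female hosts. CD4 T cells followed with 0.658 (0.602 to 0.718) and 0.673 (0.610 to 0.742), male regulatory T cells with 0.655 (0.613 to 0.70), and CD8 T cells with 0.848 (0.80 to 0.899) and 0.794 (0.727 to 0.867). Within these lymphocyte types the male and female intervals overlapped.

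Macrophages had a ratio of 0.929 (0.913 to 0.946) for male and 1.29 (1.27 to 1.32) for female hosts, so S genes weighed more in the female macrophages. Other T cells (0.881 and 1.24), type 2 dendritic cells (0.855 and 1.78), mature dendritic cells (1.06 and 1.73) and monocytes (1.13 and 1.99) differed in the same direction, each with intervals that did not overlap. NK cells (1.17 and 1.24) had overlapping intervals, and neutrophils went the other way (1.54 and 1.04). Pcna alone gave 219 of the 1027 CPM of S genes in male and 190 of the 682 CPM in female macrophages. The ratio also depends on the genes in the sets: with 30 other S genes and 35 other G2 and M genes of longer lists it was 0.343 and 0.337 in carcinoma cells, 0.530 and 0.525 in CD8 T cells, and 0.458 and 0.498 in macrophages. Carcinoma cells were again lowest. The interval of the male ones (0.340 to 0.345) met those of male monocytes (0.318 to 0.434) and male type 2 dendritic cells (0.344 to 0.405), however. With these genes the macrophages still differed between the libraries, by less than with the 38 genes. The differences in the other types were lost. Their intervals overlapped, at 0.524 and 0.573 in other T cells, 0.373 and 0.424 in type 2 and 0.400 and 0.420 in mature dendritic cells, 0.372 and 0.451 in monocytes, and 0.447 and 0.458 in neutrophils.

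**Figure D3:**
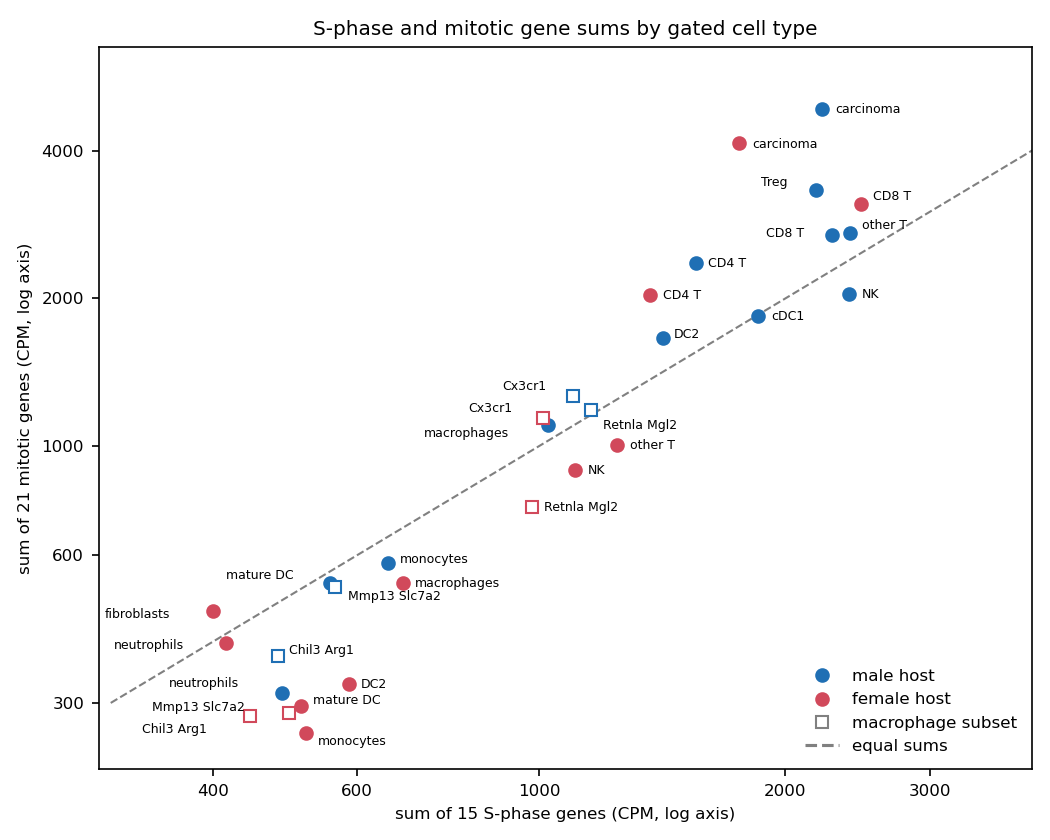
Summed CPM of the 21 mitotic genes (vertical) against summed CPM of the 15 S genes (horizontal), both on log axes, with 1 point per cell type or macrophage subset and library and a dashed line at equal sums. Carcinoma cells lie farthest above the line (2218 CPM of S against 4868 CPM of mitotic genes in the male, 1757 against 4134 CPM in the female library), and female macrophages and monocytes lie below it.

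The share of cells with a Mki67 or Top2a UMI was compared after every cell was thinned to 1000 UMIs, since deeper cells show more genes. As deposited, the share was 75.3% and 72.2% in carcinoma cells, 48.1% and 31.2% in macrophages, 34.1% and 34.3% in CD8 T cells, and 8.72% and 7.22% in neutrophils. The median depths were 10200.5 and 10789 UMIs in carcinoma cells, 10563 and 8440 in macrophages, 2150 and 2559.5 in CD8 T cells, and 1265 and 1230.5 in neutrophils. As deposited, macrophages therefore had a higher share than male CD8 T cells while their CPM of both genes was lower. No order is read from those shares.

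After thinning, the share was 42.3% and 39.5% in carcinoma cells, 23.9% (19.2% to 29.0%) and 28.6% (19.9% to 38.6%) in CD8 T cells, and 17.2% and 17.6% in CD4 T cells. It was 31.6% in male regulatory T cells, 27.8% and 14.3% in other T cells, and 27.2% and 10.5% in NK cells. Macrophages were at 19.7% (18.0% to 21.5%) and 7.90% (6.89% to 9.02%). The intervals of male regulatory T cells and of female CD8 and CD4 T cells lay above that of macrophages in the same library, and those of the other lymphocyte types overlapped it. Neutrophils, which should lack the genes, gave 6.90% (4.80% to 9.56%) and 3.97% (1.30% to 9.02%). The female macrophages' interval met that of the female neutrophils, which rests on 5 of 126 cells. Carcinoma cells had the highest share at this depth. For female hosts their interval (37.8% to 41.1%) met that of CD8 T cells (19.9% to 38.6%). Thinned to 3000 UMIs, a setting chosen after the data had been seen, carcinoma cells gave 61.3% (59.9% to 62.7%) and 55.6% (53.9% to 57.3%), and macrophages 33.3% and 18.0%. At that depth male CD8 T cells gave 66.0% (55.5% to 75.4%), regulatory T cells 64.8% (53.9% to 74.7%) and other T cells 62.3% (49.8% to 73.7%), and female CD8 T cells 53.5% (37.7% to 68.8%). Their intervals included the carcinoma cells' share of the same sex. The lead of male carcinoma cells over these male T cells, seen at 1000 UMIs, thus did not hold at 3000. The deeper setting left out 223 of 317 male CD8 T cells and 673 of 5286 male carcinoma cells. Male CD8 T cells with such a UMI at 1000 UMIs had a median depth of 3808 UMIs before thinning, and those without 1951.5 UMIs. The setting of 3000 thus kept the deeper T cells, and its shares are not those of all T cells. Only 32 male neutrophils were that deep, and 12 of them (37.5%, 21.1% to 56.3%) had such a UMI, an interval that included the share of male macrophages.

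Type 1 dendritic cells of the male library had a thinned share of 25%, above the neutrophils. Type 2 dendritic cells had 28.3% (20.7% to 37.0%) for male and 4.35% (0.906% to 12.2%) for female hosts, the latter overlapping the neutrophils. Monocytes (8.70% and 6.49%) and mature dendritic cells (13% and 5.63%) had intervals that overlapped those of neutrophils in the same library. Female NK cells and female other T cells overlapped the neutrophils as well. At this depth these shares were not separated from the neutrophils' by more than counting error.

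**Figure D4:**
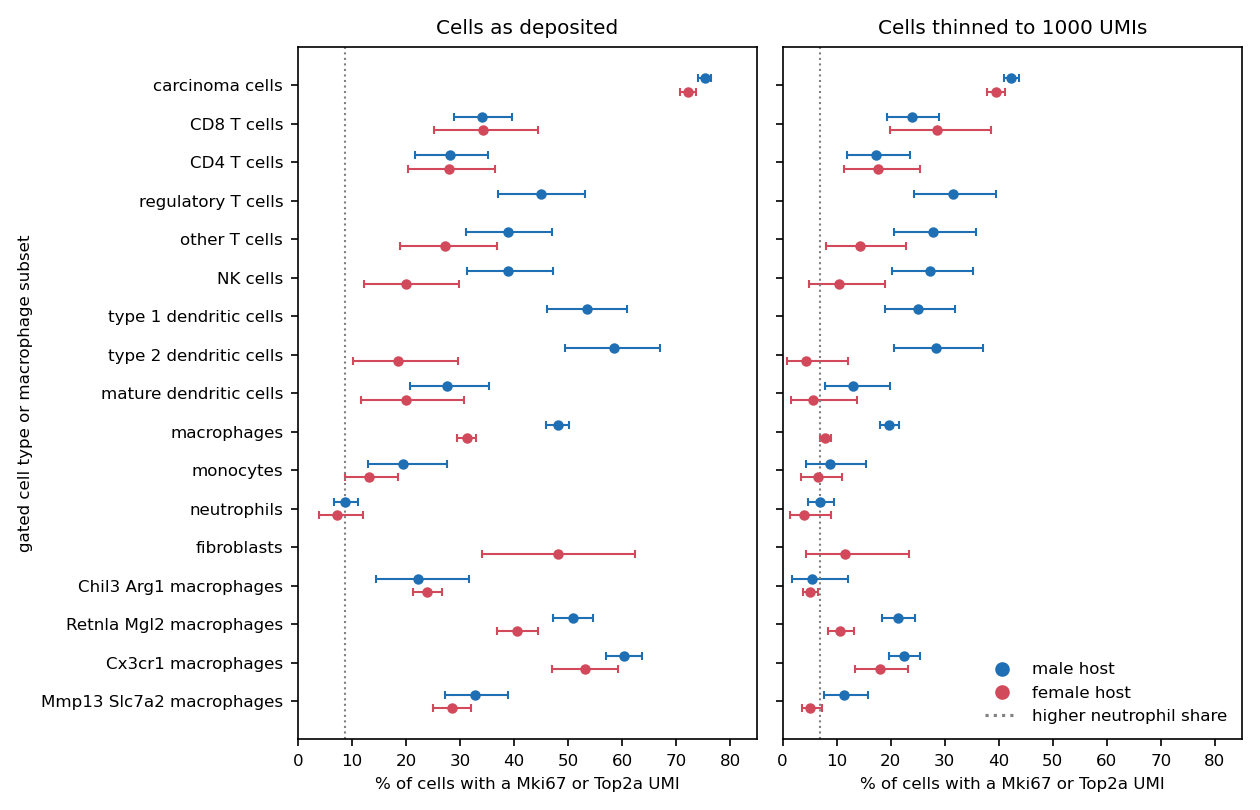
Percent of cells with a Mki67 or Top2a UMI in each cell type and macrophage subset, by host sex, with cells as deposited (left) and thinned to 1000 UMIs (right), exact binomial 95% intervals, and a dotted line at the higher of both neutrophil shares. Thinned to 1000 UMIs, carcinoma cells are highest at 42.3% and 39.5%, and macrophages of male hosts (19.7%) lie right of those of female hosts (7.90%), which are next to the line.

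In cells chosen by a Mki67 or Top2a UMI, the other 36 genes were high as well. After thinning, 36 of 36 were higher in carcinoma cells with such a UMI than in those without, in the male library (8.25% of all genes) and in the female library (8.36%). Their mitotic genes were 5.00 and 5.12 times as high, and their S genes 2.98 and 2.87 times. In macrophages, female ones included, whose share lay next to that of neutrophils, most genes followed too. Of the genes with enough UMIs, 30 of 32 (6.2% of all genes) and 28 of 29 (4.89%) were higher, with mitotic ratios of 8.6 and 10.2 and S ratios of 3.09 and 4.12. In male CD8 T cells 15 of 17 were higher (6.9%), with ratios of 13.4 and 3.95. In these 3 types the mitotic genes differed more between the cells than the S genes did. Mki67 and Top2a, which chose the cells, belong to the mitotic set, so no conclusion is drawn from that order. Cells with such a UMI were also deeper before thinning, with a median of 13728 against 10693 UMIs in male macrophages and 3808 against 1951.5 in male CD8 T cells, and the part of depth was not tested beyond thinning.

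Between the male and the female tumours, macrophages had the most genes called. Of the 38 genes, 30 were higher in male macrophages, where 7.56% of all genes were, and 0 were higher in female ones (6.85%). The median ratio of the genes was 0.91 on the log2 scale, against -0.01 over all 14370 genes tested. The sum of the 38 genes was at 2368 and 1333 CPM, a ratio of 1.78 (1.75 to 1.8). Mitotic genes led: 20 of 21 were called, all except Aurka, with a sum of 1106 and 527 CPM, while 8 of 15 S genes were, with a sum of 1027 and 682 CPM.

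By role, all 4 genes of the mitotic cyclins and Cdk1, all 8 spindle genes and all 4 genes of chromatin and microtubules were higher in male macrophages. So were 6 of the 7 genes of the kinases and ubiquitin ligase, 4 of the 5 DNA synthesis genes and 4 of the 8 genes of the helicase, licensing and its control, but neither G1/S cyclin. Ube2c had the largest ratio, 2.71 (2.50 to 2.93), at 92.9 and 34.3 CPM. Cdc20, which steers the anaphase-promoting complex, followed at 2.46 and the kinetochore subunit Spc24 at 2.40. Mki67 was at 164 and 68.7 CPM, a ratio of 2.38 (2.26 to 2.52), and Top2a at 226 and 108 CPM, a ratio of 2.10 (2.01 to 2.20). At the other end were Ccne2 (1.03), Ccne1 (1.02) and Aurka (1.00), none of them called, and Pcna, at 219 and 190 CPM, had a ratio of 1.15 (1.11 to 1.20). Under the other settings tried, between 28 and 34 genes were called higher in male macrophages.

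The make-up of the macrophages differed between the libraries as well. Macrophages with Chil3 and Arg1 numbered 99 (male) and 1000 (female), those with Retnla and Mgl2 739 and 684, those with Cx3cr1 852 and 269, and those with Mmp13 and Slc7a2 268 and 646. The 38 genes summed to 972 and 803 CPM in Chil3 Arg1 macrophages, 2617 and 1905 CPM in Retnla Mgl2 macrophages, 2605 and 2362 CPM in Cx3cr1 macrophages and 1220 and 865 CPM in Mmp13 Slc7a2 macrophages. The subset that was most numerous in the female library had the lowest sum in both libraries, and the subset most numerous in the male library had a sum among the highest in both. Whether the make-up had a part in the difference over all macrophages was not tested.

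Within the subsets the male to female ratio was smaller than over all macrophages. It was 1.10 (1.08 to 1.13) in Cx3cr1 macrophages, where 1 gene, Hmgb2 (1.56), was called higher in the male library (4.58% of all genes) and 1, Ccne2 (0.58), in the female (6.43%). It was 1.37 (1.35 to 1.40) in Retnla Mgl2 macrophages, where 16 genes were higher in the male (4.06%) and 1, Ccne2, in the female library (6.8%). Ube2c (2.15), Mki67 (1.79) and Birc5 (1.74) had the largest ratios there, and Ccne1 (0.81), Aurka (0.73) and Ccne2 (0.66) the smallest. In Mmp13 Slc7a2 macrophages the ratio was 1.41 (1.35 to 1.47), 14 genes were higher for male (4.94%) and 0 for female hosts (5.98%), and that count of 14 became 1 on thinning to 1000 UMIs. Ube2c (3.52), Cenpe (2.53) and Spc24 (2.41) had the largest ratios, and Ccne2 (0.75), Ccne1 (0.59) and Plk1 (0.59) the smallest. The thinned share of cells with Mki67 or Top2a was 22.5% and 17.9% in Cx3cr1 macrophages, with overlapping intervals, and 21.4% and 10.6% in Retnla Mgl2 macrophages, without overlap. It was 11.3% and 5.17% in Mmp13 Slc7a2 and 5.38% and 5.01% in Chil3 Arg1 macrophages. The intervals of these last 2 subsets in both libraries, and of female Retnla Mgl2 macrophages, overlapped those of the neutrophils, while male Retnla Mgl2 and all Cx3cr1 macrophages lay above them.

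**Figure D5:**
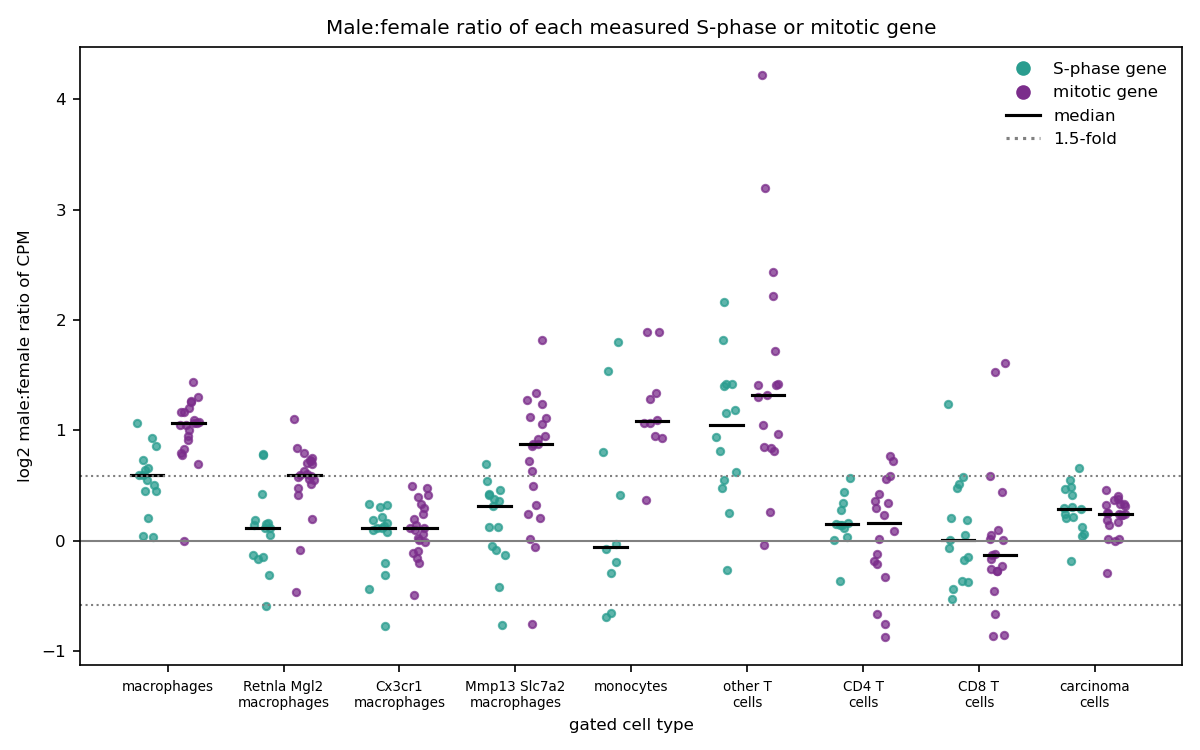
Male to female ratio of CPM (log2) of each S and mitotic gene with enough UMIs, 1 point per gene, in types with at least 100 cells in both libraries other than neutrophils, with bars at the medians and dotted lines at 1.5-fold. In macrophages the medians are 0.60 for S and 1.07 for mitotic genes, in Cx3cr1 macrophages 0.12 and 0.11, and in carcinoma cells 0.29 and 0.24.

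In CD8 T cells few genes were called. Of 36 genes with enough UMIs, 1 (Cdc20, 33.2 and 10.9 CPM, on 31 and 4 UMIs) was higher in the male library (4.38% of all genes) and 2 (Cenpf, 68.5 and 125 CPM; Hmmr, 44.9 and 81.5 CPM) in the female library (5.04%). Cenpf is a kinetochore protein, and Hmmr binds spindle microtubules. The sum had a ratio of 0.914 (0.871 to 0.960). In CD4 T cells 1 of 32 genes, Hmgb2 (309 and 167 CPM), was higher in the male (4.61%) and 1, Cenpf (68.5 and 108 CPM), in the female library (5.63%), and the sum had a ratio of 1.18 (1.11 to 1.26). Both counts move with the settings, to between 0 and 4 genes in CD8 and 0 and 8 genes in CD4 T cells. Whether the male to female ratio itself differed between macrophages and T cells was not tested, with 1 library per group.

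Other T cells differed more. In them 22 of 33 genes were higher in the male library (6.28% of all genes) and 0 in the female (7.59%), with a summed ratio of 2.28 (2.11 to 2.47). Mki67 was at 469 and 86.7 CPM, a ratio of 5.41 (3.63 to 8.37), and Pclaf at 533 and 119 CPM, a ratio of 4.48 (3.18 to 6.49). The female value of several genes rested on 1 cell, which held 60.7% of the 89 Top2a UMIs, 74.1% of the Birc5 UMIs and 75.0% of the Ube2c UMIs. On thinning to 1000 UMIs 9 genes were called. NK cells, with under 100 female cells, were not compared gene by gene. Their sum was at 5129 and 2238 CPM. Their shares thinned to 1000 UMIs, 27.2% and 10.5%, had intervals that did not overlap, but those thinned to 3000 UMIs, 44.7% and 27.3%, had intervals that did.

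In monocytes 8 of 22 genes were higher in the male library (4.39% of all genes) and 0 in the female (6.81%), among them Ube2c (67.4 and 18.2 CPM), Pclaf (118 and 40.8 CPM) and Top2a (109 and 42.9 CPM). That count became 1 on thinning and 1 without the 5% of cells with most UMIs. In neutrophils 1 of 18 genes was called in each direction, Mcm5 (36.7 and 8.90 CPM, on 39 and 3 UMIs) in the male (3.08%) and Mki67 (70.6 and 122 CPM) in the female library (11.8%).

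In carcinoma cells most of the ratios lay near 1. Pclaf alone was called, higher in the male library at 367 and 233 CPM, a ratio of 1.58 (1.54 to 1.61), where 8.67% of all genes were called so and 8.01% in the opposite direction. Thinning left 0 genes called. All the same, 35 of the 38 ratios lay above 1, with a median of 0.25 on the log2 scale, and the sum had a ratio of 1.21 (1.21 to 1.22). How many of all genes had a ratio above 1 was not counted, so this shift is not read as particular to the 38 genes. The helicase subunit Mcm5 (1.46) and Stmn1 (1.44) came next to Pclaf, while Bub1 (1.00), Ccne1 (0.88) and Anln (0.82, at 281 and 344 CPM) had the smallest ratios. The shares of cells with Mki67 or Top2a, 42.3% and 39.5% when thinned to 1000 UMIs, had overlapping intervals, but those as deposited (75.3% and 72.2%) and thinned to 3000 UMIs (61.3% and 55.6%) did not.

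Across the 10 comparisons of male with female cells, Hmgb2 was higher in the male library in 7, more than any other of the 38 genes. Aurka, Pcna, Mcm2, Mcm3, Cdc6 and Ccne1 were called in none of the comparisons in which they had enough UMIs. Macrophage subsets share cells with all macrophages, so these comparisons are not independent of each other.

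Genes of the cycle outside the 38 were taken from longer lists. Of 29 other S genes with enough UMIs, 12 were higher in male macrophages and 0 in female ones, and of 35 other G2 and M genes 19 and 0, beside 7.56% and 6.85% of all genes. Ckap2l (31 and 11.5 CPM), a spindle protein, had a ratio of 2.69, and Kif11 (16.3 and 6.81 CPM), the motor that pushes spindle poles apart, of 2.39. In carcinoma cells 1 of 29 other S genes, Cdca7 (20.7 and 12.7 CPM), was called for male hosts (8.67% of all genes) and 0 for female hosts (8.01%).

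Among brakes on the cycle, Cdkn1a, the p21 inhibitor of cyclin-dependent kinases, was highest in neutrophils, at 1680 and 1803 CPM, and was at 953 and 1253 CPM in macrophages, 149 and 247 CPM in CD8 T cells, and 298 and 549 CPM in carcinoma cells. Its male to female ratio in carcinoma cells was 0.543 (0.533 to 0.554), and that of Btg2, another antiproliferative gene, 0.494 (0.480 to 0.508), at 134 and 272 CPM. Both were thus higher in the female carcinoma cells. In macrophages 2 of 10 brakes were higher in the male library, the kinase inhibitor Cdkn2c (1.89) and the pocket protein gene Rbl1 (1.53), and 0 in the female, where 7.56% and 6.85% of all genes were. A count of 2 of 10 is too small to read.

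A list of D cyclins, kinases and transcription factors of the cycle, called drivers here, split by cell type. The name does not say in which direction each gene acts. Ccnd1, a D-type cyclin, was at 665 and 529 CPM in carcinoma cells and at 19.3 and 0 CPM in CD8 T cells. Ccnd2, its relative, was at 33.2 and 54.5 CPM in carcinoma cells but at 356 and 272 CPM in CD8 T cells, 608 and 597 CPM in CD4 T cells and 684 and 868 CPM in mature dendritic cells, whose mitotic genes were low. Cdk6, a kinase partner of the D cyclins, was at 336 and 302 CPM in CD8 T cells, 176 and 154 CPM in carcinoma cells and 54.5 and 66.3 CPM in macrophages. Carcinoma cells and T cells thus differed in which D cyclin transcript was high. Of 14 drivers, 4 were higher in male macrophages (7.56% of all genes) and 0 in female ones (6.85%): Ccnd2 (1.87), and the transcription factors E2f7 (1.78), Foxm1 (2.14) and Mybl2 (2.65). In carcinoma cells 0 were higher for male (8.67% of all genes) and 3 for female hosts (8.01%), among them Ccnd2 (0.61) and Myc (187 and 290 CPM, ratio 0.644).

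Across 19 profiles of a type in a library with at least 100 cells, the genes outside all lists whose level was most like the summed mitotic genes were Spag5 (Pearson r = 0.96 of log2 values), Cep57l1 (0.95), Cenpw (0.95), Diaph3 (0.95), Nup107 (0.94), Ncaph (0.93), Rbbp7 (0.93), Ran (0.93), Selenoh (0.92) and Nucks1 (0.92). Among the 38 genes r ran from 0.62 for Aurka to 0.99 for Top2a, which is itself a large part of the mitotic sum. Profiles of a library share its depth and its free RNA, and these values are descriptions.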

How the data were processed

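Per the labels, cells of MB49 tumours were sorted by CD45 and captured on the BD Rhapsody system. The deposited tables hold raw counts of UMIs per gene and cell, which the authors made with CASAVA 1.8, UMI-tools and Seurat on mm10, per the submitters' processing notes; no aligner is named there. Barcodes are serial labels in each table, so barcodes that libraries share could not be counted. UMIs of kept cells were summed per marker-gated type and library, and CPM is their share of all UMIs of that sum, in Python 3.11.15 with numpy 2.4.6, scipy 1.17.1 and pandas 2.3.3; figures were drawn with matplotlib 3.10.9. Types with at least 50 cells in a library were described, and those with at least 100 in both libraries compared. With 1 library per group no test over samples was made. Levels have exact Poisson, ratios exact conditional binomial and shares exact Clopper-Pearson intervals at 95%. The ratio code was checked on simulated data. The members and lists were chosen with earlier results of these data known, and the gates' thresholds and the macrophage subsets were set after counts had been seen. Values in every main type are given for Mki67, Top2a and the 2 members of each role with most UMIs, and each male against female comparison names the largest and smallest ratios. Pclaf, Ccnb1, Aurka, Hmgb2 and genes of the brake and driver lists were also named after their values were seen. Alternatives were a higher UMI minimum, thinning, another scaling, stricter gates, leaving out the deepest cells and a higher UMI minimum per gene.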

Additional observations from a re-analysis of the deposited data

Results flagged for a closer look

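Some genes were called higher in the male library in 1 cell type and higher in the female library in another, and the difference between the types was not tested, since each group has 1 library. Hmmr, which binds spindle microtubules, had a male to female ratio of 0.70 on the log2 scale in macrophages and 0.95 in Mmp13 Slc7a2 macrophages, but -0.86 in CD8 T cells. Cenpf, a kinetochore protein, was at 1.20 in macrophages and 0.81 in other T cells, but at -0.87 in CD8 and -0.66 in CD4 T cells. Hmmr and Cenpf rested on 42 and 30 UMIs and on 64 and 46 UMIs in male and female CD8 T cells.

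Mki67 was at 1.25 on that scale in macrophages, 0.95 in monocytes, 2.44 in other T cells, 0.84 in Retnla Mgl2 macrophages and 1.12 in Mmp13 Slc7a2 macrophages, but at -0.78 in neutrophils. In the neutrophils 75 male and 41 female UMIs stood behind that value, 43.9% of the latter from 1 cell, and the direction turned on thinning.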

How the results depend on the processing

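The count of genes higher in male macrophages was 30 and lay between 28 and 34 under every alternative run. Mitotic genes higher in carcinoma than in CD8 T cells numbered 15 and 11, and between 11 and 17 (male) and 10 and 14 (female) under the alternatives, all of them chosen after the data had been seen. On thinning to 1000 UMIs, the genes higher in the male library went from 8 to 1 in monocytes, 1 to 0 in neutrophils, 1 to 0 in CD8 T cells, 22 to 9 in other T cells, 16 to 10 in Retnla Mgl2, 1 to 2 in Cx3cr1 and 14 to 1 in Mmp13 Slc7a2 macrophages, and 1 to 0 in carcinoma cells. Those higher in the female library went from 1 to 2 in neutrophils, 2 to 0 in CD8 and 1 to 0 in CD4 T cells, and 1 to 0 in Retnla Mgl2 and in Cx3cr1 macrophages. With at least 2000 UMIs per cell the male counts were 2 in neutrophils, 4 in CD8 and 8 in CD4 T cells, and the female counts 1 in monocytes, 0 in neutrophils, 1 in CD8 T cells, 0 in CD4 T cells and 1 in Mmp13 Slc7a2 macrophages. Without the 5% of cells with most UMIs the male counts were 1 in monocytes, 0 in neutrophils, 3 in CD8 T cells, 4 in CD4 T cells and 3 in Cx3cr1 macrophages, and the female counts 3 in neutrophils, 1 in CD8 T cells, 0 in Retnla Mgl2 and Cx3cr1 and 1 in Mmp13 Slc7a2 macrophages. A stricter gate gave male counts of 2 in monocytes and 5 in CD4 T cells, and a female count of 0 in CD4 T cells. Scaling by the median ratio gave a male count of 3 in neutrophils and a female count of 0 in Retnla Mgl2 macrophages. A minimum of 100 UMIs per gene, which tests fewer genes, gave male counts of 2 in monocytes, 0 in neutrophils, 0 in CD8 T cells and 12 in other T cells, and female counts of 1 in CD8 and 0 in CD4 T cells. The male to female ratio of Mki67 turned from 1.93 to 0.904 in monocytes without the 5% of cells with most UMIs, and from 0.581 to 1.36 in neutrophils on thinning. The counts under these alternatives have no share of all genes beside them, so they show only how the counts moved. The cause of these moves was not tested.

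The male to female ratio of the share of cells with Mki67 or Top2a went in macrophages from 1.54 to 2.15 with at least 2 UMIs and 2.50 on thinning, in carcinoma cells from 1.04 to 1.08 and 1.07, and in CD4 T cells from 1.01 to 1.45 with at least 2000 UMIs per cell. The S to mitotic ratio of both libraries together moved on thinning and without the deepest 5% of cells to 1.16 and 1.15 in macrophages (from 1.06), 1.97 and 2.35 in monocytes (from 1.51), 0.995 and 0.899 in CD8 T cells (from 0.831), 0.755 and 0.767 in CD4 T cells (from 0.664), 1.10 and 1.03 in other T cells (from 0.943) and 0.454 and 0.451 in carcinoma cells (from 0.444). A stricter gate gave a ratio of 1.04 in macrophages and 2.0 in monocytes. With the other S and G2 and M genes it was 0.476 in macrophages, 0.423 in monocytes, 0.450 in neutrophils (from 1.40), 0.529 in CD8, 0.406 in CD4 and 0.536 in other T cells, and 0.340 in carcinoma cells. S genes lower in carcinoma than in CD8 T cells went from 0 to 3 in the male libraries with at least 2000 UMIs per cell, and in the female libraries from 8 to 1 on thinning, without the deepest 5% of cells and under scaling by the median ratio.

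No paired analysis was possible because each group has 1 library and the result comes from no test. Depth limits the small types most: at a median of 1265 and 1230.5 UMIs, neutrophils had 18 of 38 genes with enough UMIs to compare, and monocytes 22.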

Other observations

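Barcodes under 500 UMIs, which entered no comparison, held the 38 genes at different levels in the 4 libraries. The level was 1499 CPM over 137 barcodes in the male CD45+, 1386 CPM over 429 in the female CD45+, 1749 CPM over 40 in the male CD45- and 5455 CPM over 710 in the female CD45- library. Mki67 and Top2a together were at 221, 186, 282 and 1253 CPM in that order, on 13, 33, 5 and 307 UMIs. Only in the female CD45- library did these barcodes come near the level of the carcinoma cells beside them, which was 6159 CPM.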
